A study of Homo sapiens with 6 samples.

Results

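The mRNAs of HIRA and of 9 other histone chaperone or H3.3 histone genes were followed at single-nucleotide resolution through 6 libraries of reverse transcriptase (RT) stops. The 10 genes were chosen by symbol, with HIRA read as NM_003325 and ANP32A as NM_006305, out of 15367 genes with a symbol in the files. Each of the 10 had a transcript that could be placed on the genome, which held for 10430 of those genes. UBN1 was read as NM_001079514, ASF1A as NM_014034, ASF1B as NM_018154, H3-3A as NM_002107, H3-3B as NM_005324, NAP1L1 as NM_004537, NASP as NM_002482 and SET as NM_001122821.

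The study asked whether RNA G-quadruplexes, which are 4-stranded folds of G-rich RNA that hold K+ and halt RT, are folded inside human cells and whether stress changes this. Poly(A) RNA of U2OS, an established human osteosarcoma line, was cut into short pieces and reverse transcribed, and each cDNA end gives 1 RT stop. A pair of libraries without dimethyl sulfate (DMS), a reagent that methylates unprotected bases, was made with RT in 150 mM of a cation, labelled Na+ for one library and K+ for the other. The 4 DMS libraries were reverse transcribed in 150 mM K+. For the in vitro libraries, RNA was refolded and modified in 150 mM K+ or in 150 mM Li+. For the cell libraries, living cells received 8% DMS for 5 min, either unstressed in complete medium or after 2 h of starvation in a balanced salt solution with Ca and Mg. There was 1 library per condition, so no difference between conditions has a replicate check.

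The labels and the deposited names of the libraries without DMS go against each other, since the library labelled Na+ carries a K+ name and the library labelled K+ a Na+ name. The labels were followed, the libraries are called "the library labelled Na+" and "the library labelled K+" throughout, and any direction between them would turn with the other assignment. The study names K+ or Li+ for this RT step in its methods and Na+ elsewhere. RT stalling at G-quadruplexes is known to be stronger in K+ than in Na+. Over the data set, 4 closely spaced runs of GG preceded 88.6% of 4386 strong stops at G that were stronger in the library labelled Na+ and 9.31% of 247 that were stronger in the library labelled K+, which goes with the deposited names and against the labels. Listed stops summed to 33507714 in the library labelled Na+, 35371061 in the library labelled K+, 21480565 and 31174408 in vitro in K+ and Li+, 12999691 in unstressed cells and 24014417 in starved cells. A nucleotide is listed only with 3 or more stops, so one that is not listed had from 0 to 2. A base of a transcript with no listed nucleotide adds 0 stops, so the level there is a lower limit, and only 3676 of the 9621 transcripts compared between the cell libraries had all 4 bases listed in both. All intervals below are exact 95% intervals and cover counting error only.

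The cell line was checked against markers of mesenchymal tumour cells. Of the 7 markers, 6 had stops in each library, and their summed level was 4425 in unstressed and 3035 in starved cells, in stops per 1000000 stops on matched transcripts (SPM), and 4340 to 4600 SPM in the other 4 libraries. VIM was the most abundant of them in all 6 libraries, and COL1A2 was not listed. Of the 3 epithelial markers only EPCAM could be read, at 4.96 to 9.02 SPM, and of the 3 blood markers only HBB, at 1.10 to 7.62. CDH1 and PTPRC were listed, but their transcripts could not be matched and no level can be given. KRT19, CD3E and the liver marker ALB were not listed. The other cell types were thus read from EPCAM and HBB alone, which lay far below VIM in every library.

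Histone chaperones are acidic proteins that bind histones away from DNA and hand them on during replication, transcription and repair. The HIRA complex, with UBN1 and CABIN1, deposits the variant H3.3 outside of replication, while ASF1A and ASF1B carry H3-H4 dimers to it and to the replication-coupled complex CAF-1. H3-3A and H3-3B encode the same H3.3 protein, NASP keeps a soluble H3-H4 reserve, NAP1L1 escorts H2A-H2B, and ANP32A and SET are acidic chaperones that also inhibit protein phosphatase 2A and histone acetylation.

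The stops described most below are shown as the 30 nt of mRNA that end at the stop, because RT approaches from the 3′ side and had yet to copy these bases. They are written 5′ to 3′ in mRNA sense with T for U, from GENCODE release 44 on GRCh37, and capitals mark runs of 2 or more G. The number after the gene is the position in the matched transcript, counted from its 5′ end.
HIRA 3967, 3′ UTR: tgttttGGGGGaatGGGGcaaaGGGGtGGG
HIRA 2411, coding sequence: tgaagtgcaaccGGGaaGGGaaGGagtGGG
HIRA 135, 5′ UTR: GGGcGGcGGccGGaGGGcGGGtGGcgcGGG
UBN1 4036, 3′ UTR: ctGGGGcttgcgctGGGccgtGGtGGGaGG
SET 1667, 3′ UTR: gcaaaGGGtGGGtttgagatgtttGGGtGG
ANP32A 1100, 3′ UTR: GGGGttgcGGGGGGaGGGatGGcGGGtGGG
NASP 2494, coding sequence: gccGGGcagcagtGGaGGGGacagtGGaGG
H3-3B 620, 3′ UTR: tttGGtttaatttgtgactttttttgtaag
The HIRA site lies in exon 25 of 25 at chr22:19318270-19318299 on the minus strand. The SET site is in exon 8 of 8 at chr9:131457467-131457496 on the plus strand, and the ANP32A site is in exon 7 of 7 at chr15:69072241-69072270 on the minus strand. The NASP stretch lies in exon 15 of 15 at chr1:46083752-46083781 on the plus strand. The H3-3B stretch is shown for contrast, as a strong stop at G without a G-rich stretch before it.

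HIRA mRNA, the transcript of the H3.3 chaperone itself, had like levels in 5 libraries and a lower one in starved cells. Its level was 99.5 SPM in the library labelled Na+, 91.7 in the library labelled K+, 94.0 in K+ in vitro, 96.6 in Li+ in vitro, 86.7 in unstressed cells (82.5 to 91.1) and 24.4 in starved cells (22.6 to 26.2). The starved library thus lay below the other 5, whose levels lay between 86.7 and 99.5 SPM. Against unstressed cells the level in starved cells was 3.56-fold lower, with a starved over unstressed ratio of 0.281 (0.257 to 0.306). A lower share of stops can come from fewer HIRA-expressing cells, from less HIRA RNA in each or from a difference between the libraries themselves. With 1 library per condition these cannot be told apart. The level in the library labelled K+ was 0.922 of that in the library labelled Na+, and the level in vitro in K+ was 0.972 of that in Li+. UBN1, the HIRA partner that binds H3.3, was likewise lowest in starved cells. Its level was 101 SPM in the library labelled Na+, 98.4 in the library labelled K+, 105 in K+ in vitro, 103 in Li+ in vitro, 89.6 in unstressed cells and 30.5 in starved cells. The UBN1 level was thus 2.94-fold lower in starved than in unstressed cells, a ratio of 0.340 (0.313 to 0.368). Both differences were smaller after the correction for GC content given below. On the log2 scale HIRA was then at -0.78 and UBN1 at -0.69, against -1.83 and -1.56 before it. With listed stops only both differences were larger, at -2.35 for HIRA and -3.00 for UBN1. The summed level of the U2OS markers was also lower in starved cells.

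The ASF1 paralogs, which hand H3-H4 to HIRA or to CAF-1, differed in opposite directions in the main setting. ASF1A differed by less than 2-fold there, and not after a correction for GC content given below. ASF1A stood at 96.9, 98.5, 96.4 and 95.7 SPM in the libraries labelled Na+ and K+ and in vitro in K+ and Li+, at 68.5 in unstressed cells (64.8 to 72.4) and at 134 in starved cells (130 to 138). Its level was 1.95-fold higher in starved than in unstressed cells (1.83 to 2.08). ASF1B stood at 25.3, 24.8, 27.1 and 28 SPM in the same 4 libraries, at 39.7 in unstressed cells (36.8 to 42.6) and at 5.96 in starved cells (5.12 to 6.88). That is a 6.65-fold lower level in starved cells, with a ratio of 0.150 (0.127 to 0.176), the lowest of the members. On the log2 scale the ASF1A difference was 0.97 and the ASF1B difference -2.73, and the latter sat at percentile 1.94 of all transcripts. In other settings ASF1A was past 2-fold, at 1.74 with listed stops only, 1.23 centred on the median transcript and 1.09 with stops at U and G only. With stops at A and C only ASF1A was at 0.996. The ASF1B levels in cells are lower limits, since no U was listed in unstressed cells and neither G nor U in starved cells, so the 6.65-fold and the percentile cannot be taken at face value. The ASF1B level in vitro in K+ is a lower limit as well, as no U was listed there. With stops at A and C only, added after seeing the data, ASF1B was 5.08-fold lower in starved cells on 183 stops there, a ratio of 0.197 (0.166 to 0.232).

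The H3.3 genes could not be compared with each other. H3-3A had 88 stops in starved cells and 47 in unstressed cells, the latter under the minimum of 50 for a comparison, and its level ran from 1.33 to 2.87 SPM over the 6 libraries. The mapping of the authors kept only reads with a unique position, and 77.0% of the 30 nt windows of the H3-3A transcript were also present in 23 genes elsewhere, so its counts cannot be read as its level. H3-3B, for which the share was 14.6% with 1 other gene, was well covered. Its level was 341 and 351 SPM in the libraries labelled Na+ and K+, 342 and 335 in vitro in K+ and Li+, 496 in unstressed cells (486 to 506) and 341 in starved cells (335 to 348). The unstressed library stood above the other 5, and the ratio of starved to unstressed cells was 0.688 (0.669 to 0.708), which did not pass 1.5-fold.

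The remaining chaperones did not pass 1.5-fold in the main setting either. With listed stops only, H3-3B at -0.68 and ANP32A at -0.62 on the log2 scale were past 1.5-fold lower and SET turned to -0.070, and H3-3B was also past it with stops at U and G only (-0.59). NAP1L1 had 921 SPM in unstressed cells and 1283 in starved cells, a ratio of 1.39 (1.37 to 1.42), with 1058 to 1102 in the other 4 libraries. The transcript matched to NAP1L1 runs past its RefSeq 3′ end, so its length of 5591 nt was rebuilt from the base means, and its level per kilobase and its E rest on that length. NASP had 278 and 246, a ratio of 0.886 (0.855 to 0.918), with 305 to 312 in the other libraries. ANP32A had 357 and 255, a ratio of 0.713 (0.690 to 0.737), with 271 to 290 elsewhere. For SET, 1141 SPM in unstressed and 1177 in starved cells gave a ratio of 1.03 (1.01 to 1.05), with 1131 to 1254 in the other libraries. These transcripts also share sequence with other genes. Of their 30 nt windows, 27.6% of SET, 18.0% of ANP32A, 16.4% of NASP and 12.2% of NAP1L1 occurred in genes elsewhere, where SETP14, ANP32AP1, NASPP1 and NAP1L4P3 shared most, against 0 for HIRA, UBN1, ASF1A and ASF1B. HIRA shared 2731 of its 3987 windows with C22orf39, a gene model that overlaps the HIRA locus itself.

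**Figure D1:**
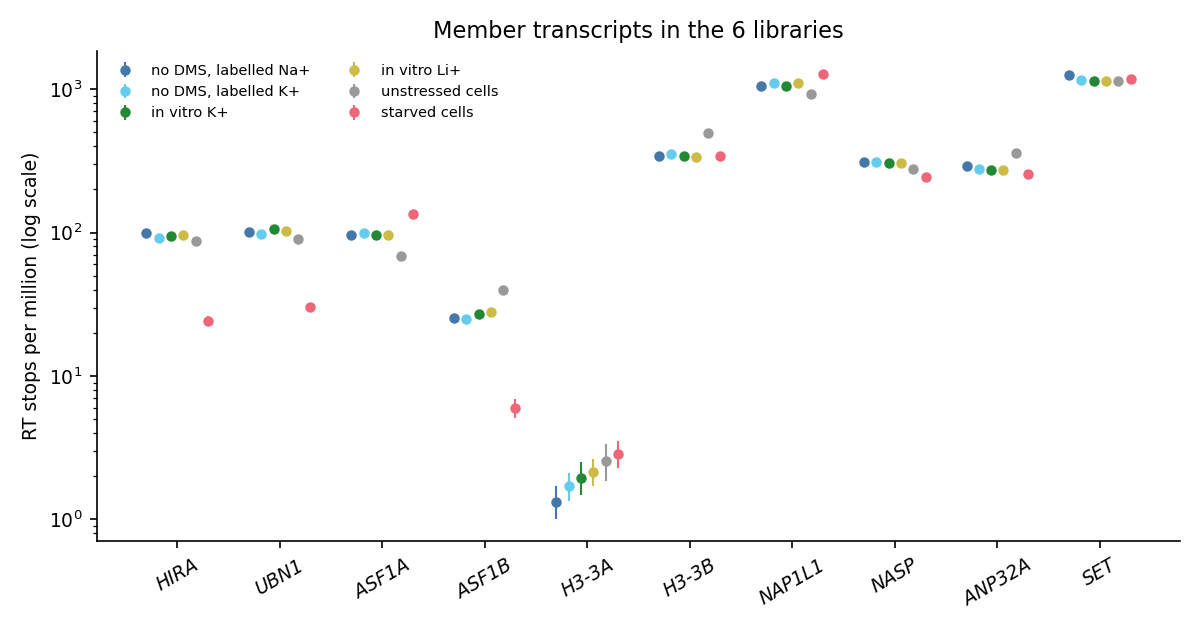
Level in SPM, RT stops per 1000000 stops on matched transcripts (log axis), for the 10 members, with 1 point per library and bars for the 95% counting interval. HIRA, UBN1 and ASF1B are lowest in starved cells, as are NASP and ANP32A by less. ASF1A and NAP1L1 are highest there, and H3-3A lies near 2 SPM in every library.

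The plot of levels by library shows each member as a cluster of 6 points, and the starved points of ASF1B, HIRA and UBN1 lie furthest from the rest of theirs. Between genes, levels were compared per kilobase of transcript, without H3-3A. In 5 of the 6 libraries the order from high to low was SET, NAP1L1, H3-3B, ANP32A, NASP, ASF1A, HIRA, UBN1 and ASF1B. The place of ASF1B in both cell libraries and in vitro in K+ rests on a lower limit. In unstressed cells H3-3B stood above NAP1L1, and ASF1B above HIRA and UBN1. Per kilobase, SET had 398 SPM and HIRA 21.6 in unstressed cells, and in starved cells 411 and 6.07. Most neighbours in this order were separated beyond their intervals. Those cover counting error only. Reads without a unique position were dropped, and the shared sequence given above, unlike between members, may affect the order. The exceptions were UBN1 and ASF1B in both in vitro libraries and ASF1B and HIRA in unstressed cells. UBN1 and ASF1B cannot be ordered in starved cells, since neither G nor U of ASF1B was listed there.

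On the level scale without a correction, the member counts lay near the background. Of the 9 members with at least 50 stops in both cell libraries, 1 (ASF1A) was at least 1.5-fold higher in starved cells, where 23.4% of 9621 transcripts were. Another 3 (HIRA, UBN1 and ASF1B) were at least 1.5-fold lower, where 41.1% of transcripts were. Both counts are close to what the background share gives for 9 transcripts, so neither is a result about the list. The median log2 difference of starved over unstressed cells was -0.49 over the 9 members and -0.26 over all transcripts. Relative to that median transcript, NAP1L1 also passed 1.5-fold, at 0.74 on the log2 scale, and NASP turned from -0.17 to 0.09, while HIRA, UBN1, ASF1B and ASF1A kept their direction.

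The difference between starved and unstressed cells followed base content over the entire data set. Over 9621 transcripts the log2 difference and the GC content had a Pearson r of -0.77 and a Spearman rho of -0.78, across genes, which are not independent. In 5 classes of equal size ordered by GC content, the median log2 difference was 0.79, 0.32, -0.31, -1.07 and -1.66, from the lowest to the highest content. HIRA, UBN1 and ASF1B had GC contents of 55.7%, 54.0% and 56.3%, and ASF1A had 35.4%. After subtraction of a straight line on GC content, an alternative chosen after seeing the data, HIRA was at -0.78, UBN1 at -0.69 and ASF1B at -1.62 on the log2 scale, still more than 1.5-fold lower. ASF1A was at -0.073 and no longer higher, and H3-3B and ANP32A came to lie more than 1.5-fold lower at -0.83 and -0.67. NAP1L1 turned from 0.48 to -0.47 and SET from 0.044 to -0.40, and NASP was at -0.09. All 9 members thus lay at or below the line, with a median of -0.67 against -0.030 over all transcripts. Of them 5 were at least 1.5-fold lower, where 20.35% of transcripts were, and 0 higher, where 19.72% were. With a line fitted to the 3676 transcripts with all bases listed, where r was -0.75, ASF1A was at 0.089 and the other 7 members with all bases listed stayed below. The members were chosen with results of these data known, so these counts describe them and nothing more. The part of GC content in any of these level differences was not tested otherwise, and the summed level of the 6 readable U2OS markers was also lower in the starved library. That fall was mostly in SPARC (893 to 275 SPM), COL1A1 (621 to 173) and FN1 (233 to 81.7), with CDH2 at 179 and 122, while VIM stood at 2474 and 2338 and RUNX2 at 25.3, a lower limit, and 45.0.

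**Figure D2:**
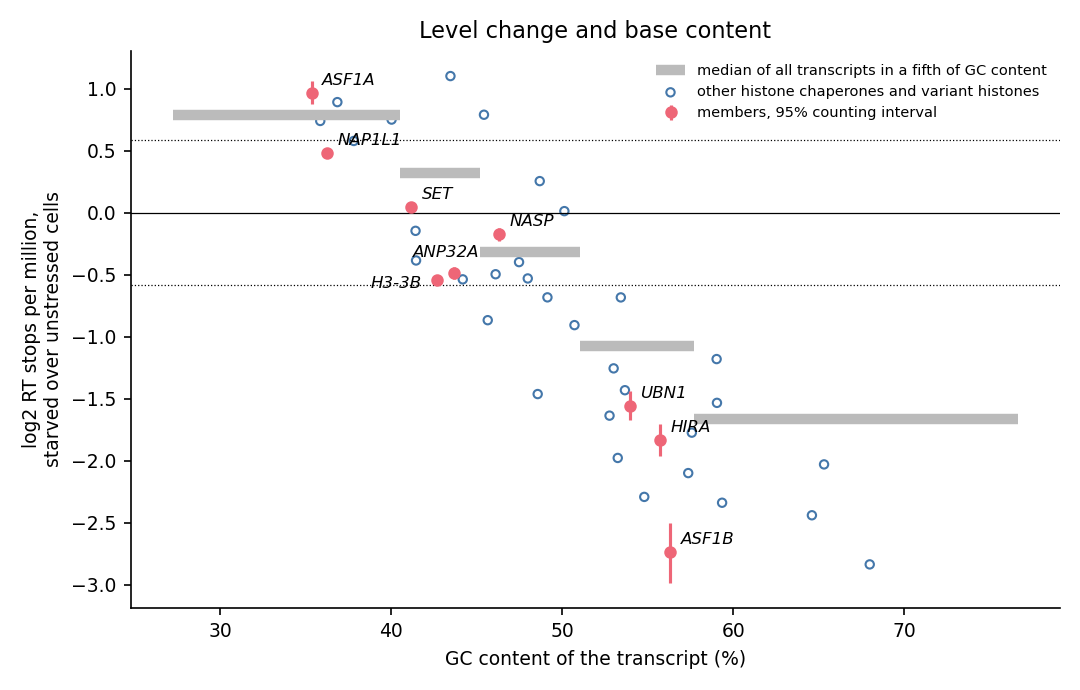
Log2 ratio of SPM, starved over unstressed cells, against the GC content of the transcript in percent, for 9 members (filled, with 95% counting intervals), 32 other histone chaperones and variant histones (open circles) and the median of all transcripts in each of 5 GC classes (grey bars). Dotted lines mark 1.5-fold, and members with high GC content lie low.

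In the plot of level change against base content, HIRA and UBN1 sit below the grey bar of their GC class and ASF1B further below, while ASF1A and NASP sit close to theirs. The other genes of the pathway went both ways. Of 32 further histone chaperones and variant histones, all with at least 50 stops in both libraries, 5 were at least 1.5-fold higher and 18 at least 1.5-fold lower in starved cells, with a median log2 difference of -0.77 and a median GC content of 49.6%. Over all 9621 transcripts 23.4% were higher and 41.1% lower, with a median of -0.26 and a median GC content of 47.8%. The H3.3 chaperone pair that works at heterochromatin and telomeres differed in direction. After the GC line ATRX was at 0.0055 and no longer past 1.5-fold, while DAXX, at -1.34, still was. ATRX went from 207 to 384 SPM (ratio 1.86, 1.79 to 1.92) and DAXX from 126 to 25.7 (4.89-fold lower, ratio 0.204, 0.188 to 0.222). The others past 1.5-fold upwards were NPM1, the nucleolar chaperone, from 899 to 1931 SPM (ratio 2.15), H2AZ1, which encodes the variant H2A.Z, from 1484 to 2566 (1.73), UBN2, the paralog of UBN1, from 20.17 to 33.96 (1.68, and 1.57 with stops at A and C only, as no U was listed in unstressed cells), and ANP32E, which removes H2A.Z, from 302 to 505 (1.67). The 5 largest differences downwards were those of H1-10 (7.13-fold), H2AX (5.42-fold), IPO4 (5.05-fold), DAXX and MCM2 (4.28-fold). No U was listed for IPO4 and DAXX in starved cells, and with stops at A and C only they were 4.83-fold and 4.59-fold lower. H1-10 is a linker histone, H2AX marks DNA breaks once phosphorylated, IPO4 imports H3-H4 with ASF1, and MCM2 is a helicase subunit that binds H3-H4 at forks. GC content was 35.9% for ANP32E, 36.9% for ATRX, 54.8% for DAXX and 68.0% for H1-10. Of the named genes that were higher, NPM1 (0.89) and H2AZ1 (0.78) stayed past 1.5-fold on the log2 scale after the GC line, and ATRX, UBN2 (0.19) and ANP32E (-0.25) did not. Of those that were lower, DAXX, IPO4 (-0.92) and MCM2 (-0.88) stayed past it, and H1-10 (-0.53) and H2AX (-0.48) did not.

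The transcripts nearest to HIRA over the 6 libraries were looked up. Among 9000 transcripts with at least 100 stops in each library, those nearest to it were CHD3, IL27RA and PTGFRN, at Euclidean distances of 0.066, 0.085 and 0.096 of centred log2 SPM. CHD3 went from 184 SPM in unstressed to 50.2 in starved cells, IL27RA from 15.0 to 4.34 and PTGFRN from 66.1 to 19.1. Their GC contents were 56.1%, 57.9% and 51.7%. Both cell levels are lower limits for IL27RA and PTGFRN, which lacked a listed base there. The 3 were picked for their likeness to HIRA, so their values are a description only.

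Where the stops fell within the transcripts can be read only from listed nucleotides. For HIRA, listed stops at any base in unstressed cells numbered 221 in the coding sequence and 396 in the 3′ UTR, and in starved cells 20 and 204. HIRA had 0.399 stops per nucleotide in unstressed and 0.187 in starved cells, and a nucleotide needs 3 stops to be listed, so sparsely covered regions drop out first. Of all HIRA stops, 617 of 1603 were listed in unstressed and 224 of 749 in starved cells, and the shares of a region cannot be compared between libraries of such unlike depth. The UBN1 counts in the 3′ UTR were 598 of 613 listed stops in unstressed and 139 of 142 in starved cells. In all, the 5′ UTR of HIRA had no listed stop in any DMS library.

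The share of stops at G, which sums all G of a transcript, was read next. DMS adds stops at A and C, and the A or C share of all stops was 50.5% and 51.4% in the libraries labelled Na+ and K+, 78.3% and 77.7% in vitro in K+ and Li+, 84.1% in unstressed cells and 74.8% in starved cells. The cell libraries thus differed in the share of stops at the bases that DMS marks. For HIRA the G share was 34.02% (32.7 to 35.4) in the library labelled Na+, 27.0% (25.7 to 28.3) in the library labelled K+, 18.7% in K+ in vitro, 17.4% in Li+ in vitro, 13.2% (11.6 to 15.0) in unstressed cells and 22.4% (19.5 to 25.6) in starved cells. The HIRA share was thus highest in the library labelled Na+ and lowest in unstressed cells, and neither of the pairs without DMS and in cells overlapped in its intervals. SET, ANP32A and NASP followed the same order in the pair without DMS, at 32.6%, 33.5% and 30.6% in the library labelled Na+ against 23.9%, 26.7% and 27.9% in the library labelled K+. The intervals overlapped for UBN1 (27.9% against 25.8%) and ASF1B (27.8% against 25.6%). ASF1A, H3-3B and NAP1L1 had the other order, also with overlap, at 16.2%, 24.0% and 23.6% against 16.9%, 24.9% and 24.0%. Single G stops weigh on these shares. In the library labelled Na+, HIRA 3967, SET 1667, ANP32A 1100 and NASP 2494 held 7.60%, 6.61%, 5.67% and 3.49% of all stops of their transcripts. In the library labelled K+, the first 3 held 0.136%, 0.177% and 0.742%, and NASP 2494 was not listed.

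All 8 members with a listed G in both cell libraries had a higher G share in starved cells, and so did 99.0% of 6327 transcripts, so the direction is not a result about the members. Their median change was 7.42 percentage points against 6.67 for those transcripts. Over the 9 members with enough stops the median was 7.40 against 7.08. The ninth is ASF1B, with 14.1% in unstressed cells, where no U was listed, and no G listed in starved cells. Its G share there cannot be read, since a base with no listed nucleotide adds 0 and is a lower limit. The changes ran from 5.57 points for ASF1A (6.24% to 11.8%) to 9.20 points for HIRA. The ASF1A share in unstressed cells rests on 1 listed G. The part of the DMS extent in these changes was not tested.

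**Figure D3:**
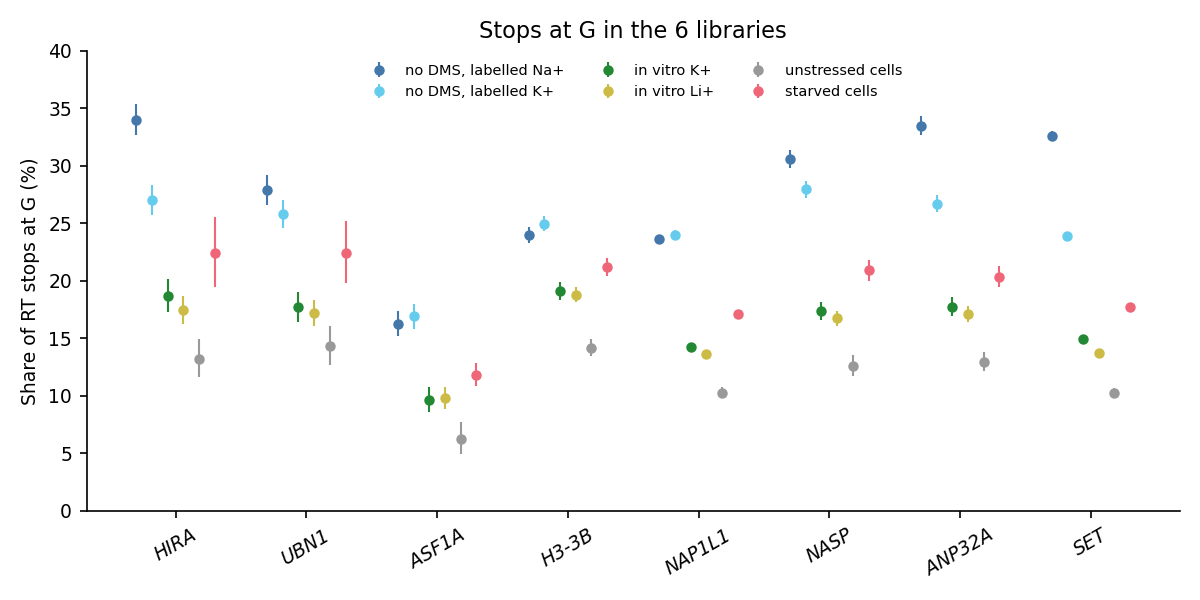
Share of RT stops at G (percent) for the 8 members with a G listed in both cell libraries, with 1 point per library and bars for the 95% counting interval. Starved cells lie above unstressed cells for all 8, and HIRA, SET and ANP32A are higher in the library labelled Na+ than in the library labelled K+.

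The plot of G shares shows the libraries without DMS on top, the in vitro pair in the middle and unstressed cells at the bottom for each gene. By region, the larger 3′ UTR share of the HIRA G stops in the library labelled Na+ came from 1 site. There the 3′ UTR, which is 742 of 4016 nt, held 560 of the listed stops at G of HIRA (59.6%, 56.4 to 62.7), the coding sequence 358 and the 5′ UTR 22. In the library labelled K+ the numbers were 176 (29.4%, 25.8 to 33.3), 422 and no listed G. Of the 560 stops, 348 were at position 3967 and 92 at 3966. Without these positions, left out after seeing the data, the 3′ UTR held 120 of 500 G stops (24%, 20.3 to 27.99) in the library labelled Na+ and 170 of 592 (28.7%, 25.1 to 32.55) in the library labelled K+. The 3′ UTR also held a larger share of the G stops in the library labelled Na+ for SET (68.7% against 56.2%), ANP32A (74.6% against 65.6%), UBN1 (68.2% against 59.4%) and ASF1B (83.6% against 66.7%), though the intervals overlapped for UBN1. Without the site of their highest E, the share was 51.5% against 55.1% for SET and 59.3% against 62.3% for ANP32A, with overlap for ANP32A only. The order thus turned for SET and ANP32A, while it stayed for UBN1 (66.7% against 59.4%) and ASF1B (82.5% against 66.7%) with intervals that overlapped. These sites lie in the 3′ UTR and were picked by E in the same libraries. Leaving them out thus lowers the share in the library labelled Na+ by construction. NASP had 91.5% (90.6 to 92.3) and 89.5% (88.5 to 90.4) of its G stops in the coding sequence, without overlap, and 90.3% (89.3 to 91.2) and 89.5% without the stop at 2494, with overlap. The intervals overlapped for NAP1L1 with 78.0% and 78.0% and ASF1A with 50.8% and 48.1% in the coding sequence, and for H3-3B with 74.0% and 75.5% in the 3′ UTR.

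Single strong stops were then compared between the libraries without DMS. The enrichment E of a stop is its count over the mean count per nucleotide of the entire transcript, and a stop is strong with E of at least 10 on a transcript with at least 1 stop per nucleotide. UBN1, ASF1B and H3-3A were under that minimum in both libraries without DMS. Of 2235 listed G of the other 7 members, 26 were strong in the library labelled Na+, where 0.806% of all listed G were. In the library labelled K+ 9 of 2333 were strong, against 0.234% of all. Together these were 28 stops in 13 sites of 6 genes, with stops within 30 nt joined into a site. ASF1A had none, its highest E being 6.00 in the coding sequence.

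Of the 26 strong stops of the library labelled Na+, 16 had an E at least 2-fold that in the library labelled K+, where 74.9% of all such stops did. The member share was thus below the background and is not a result about the members. In the other direction 1 of 9 was at least 2-fold stronger in the library labelled K+, where 14.1% were. The 16 were 4 stops in HIRA, 6 in SET, 5 in ANP32A and 1 in NASP, and 12 of them lay in 3′ UTRs, 3 in coding sequence and 1 in a 5′ UTR. Neighbouring stops share a sequence and are not separate observations, and the 16 form 7 sites. The 11 strong stops that differed less than 2-fold were 8 in H3-3B, 2 in ANP32A and 1 in NAP1L1. With the assignment by file name, the 16 would be the K+-stronger stops and the 1 the Na+-stronger one.

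**Figure D4:**
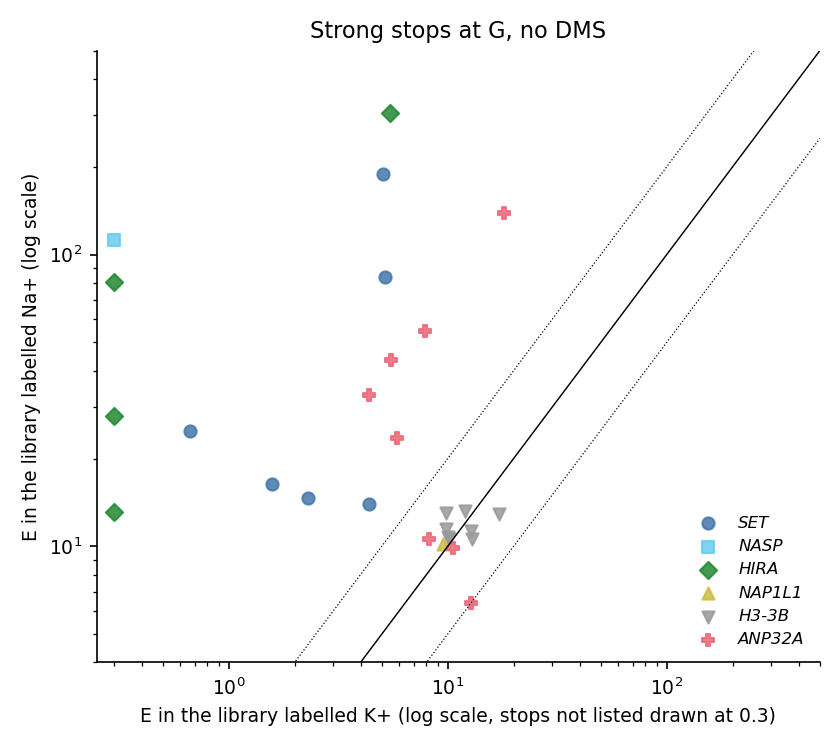
Enrichment E of the 28 strong stops at G of 6 members, library labelled Na+ against library labelled K+ (log axes), with a solid line at equal E, dotted lines at 2-fold, and stops not listed in the library labelled K+ drawn at 0.3. The stops of HIRA, NASP and SET lie above the 2-fold line, those of H3-3B and NAP1L1 along the line of equal E, and ANP32A has stops in both places.

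The plot of E in the libraries without DMS separates these groups by gene, except for ANP32A, which has stops in each. The stops on the upper left end in G-rich stretches. A window of 45 nt ending at the stop was searched in mRNA sense for 4 runs of GG, each 1 to 9 nt from the next, and for 4 runs of GGG, each 1 to 7 nt apart. Of the 16 stops stronger in the library labelled Na+, 12 had the GG pattern and 6 the GGG pattern, against 88.6% and 26.2% of all 4386 such stops on matched transcripts. Of the 11 that differed less, 0 had the GG pattern, against 10.9% of 2008. The background over all 2432733 G of such transcripts was 13.6% for GG and 0.385% for GGG, so the members followed the data set as a group. The GGG pattern was present at HIRA 3967 and at 5 of the ANP32A stops. In SET a spacer longer than the 9 nt allowed splits the G runs shown above, and 4 of its 5 strong stops in the 3′ UTR had no match.

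HIRA 3967 had the highest E of the members. Its counts were 348 in the library labelled Na+, 6 in the library labelled K+, 17 in K+ in vitro, 10 in Li+ in vitro, 19 in starved cells, and not listed in unstressed cells. On the E scale these were 305 (275 to 338), 5.46 (2.00 to 11.9), 23.5 (13.7 to 37.6), 9.89 (4.75 to 18.2) and 102 (61.6 to 158). The library labelled Na+ stood far above all others, and this 1 nucleotide took 7.60% of its HIRA stops against 0.136% in the library labelled K+, a ratio of E of 55.9 (25.4 to 153). The adjacent G at 3966 had 92 stops in the library labelled Na+ and 3 in vitro in K+, and was listed in no other library. HIRA 2411 in exon 18, with 32 stops, and HIRA 135 in exon 1, with 15, were listed only in the library labelled Na+. Against a floor of 3 stops, before counting error, their E was there at least 10.3-fold and at least 4.82-fold higher than in the library labelled K+.

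In DMS-treated RNA, the depth on HIRA was too low for firm statements. HIRA had 0.724 stops per nucleotide in vitro in K+, 0.399 in unstressed cells and 0.187 in starved cells, all under the minimum of 1, and 1.01 in vitro in Li+. As values only, E at HIRA 3967 differed 2.37-fold in favour of K+ over Li+ in vitro (1.03 to 5.80). Between the cell libraries, E was at least 13.55-fold higher in starved cells against the floor of 3 stops, before counting error, resting on 19 stops against at most 2. A folding score sets E in cells on a scale from 0, the value in Li+, to 1, the value in K+. For HIRA 3967 it was 6.76 in starved cells, outside that scale, with the mean of the starved transcript at its lowest of the 6 libraries.

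UBN1 and ASF1B were too shallow for strong stops to be called. UBN1 had 0.770 and 0.788 stops per nucleotide in the libraries labelled Na+ and K+, and ASF1B 0.689 and 0.708. Their highest G stops had E over 10 on few counts. UBN1 4036 had 12 stops (E 15.6, 8.05 to 27.2) in the library labelled Na+ and was not listed in the other 5. ASF1B 1620 had 8 stops there and was listed nowhere else. UBN1 had 5 such G stops in 3 sites, each listed in the library labelled Na+ and not in the library labelled K+. In H3-3A only 1 G was listed in the library labelled K+ and none in the other 5.

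SET carried the deepest strong stop. SET 1667 had 3815 stops in the library labelled Na+, 99 in the library labelled K+, 355 in K+ in vitro, 77 in Li+ in vitro, 24 in unstressed cells and 118 in starved cells. The values of E were 189 (184 to 195), 5.06 (4.11 to 6.16), 28.9 (25.9 to 32.0), 4.64 (3.66 to 5.80), 3.26 (2.09 to 4.85) and 9.34 (7.74 to 11.2). The stop was thus high in the library labelled Na+ and in vitro in K+, and low in the library labelled K+, in Li+ and in cells. Its E was 37.4-fold higher in the library labelled Na+ than in the library labelled K+ (30.7 to 46.2), 6.22-fold higher in vitro in K+ than in Li+ (4.85 to 8.06) and 2.87-fold higher in starved than in unstressed cells (1.84 to 4.65). The deposited ratio, which sets a stop against the same base of its transcript, went from 7.30 in unstressed to 12.12 in starved cells. That is under 2-fold. The folding score was -0.06 in unstressed and 0.19 in starved cells. The next G, 1668, had 79 stops in K+ and 19 in Li+ in vitro, and its score was 0.09 in unstressed and 0.02 in starved cells. The other strong SET stops, 1676, 1677 and 1693 in the 3′ UTR and 1103 in the coding sequence, had in vitro ratios of 1.47 to 1.59, under 2-fold. SET 1677 was the deepest of these, with 1691 stops in the library labelled Na+ and 101 in the library labelled K+.

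ANP32A held a run of strong stops in 1 G-rich site of its 3′ UTR. At 1100, the strongest, the counts were 757, 99, 55, 44, 12 and 44 in the libraries labelled Na+ and K+, in K+ and Li+ in vitro, and in unstressed and starved cells. The values of E were 139 (129 to 148), 18.1 (14.7 to 22.0), 16.02 (12.1 to 20.8), 9.43 (6.85 to 12.7), 4.44 (2.29 to 7.74) and 13.7 (9.97 to 18.4). E was thus 7.64-fold higher in the library labelled Na+ than in the library labelled K+ (6.19 to 9.52), while the in vitro ratio of K+ over Li+ was 1.7 (1.12 to 2.59). In cells it was 3.09-fold higher after starvation (1.60 to 6.43). With the deposited ratio the stop at 1100 went from 8.50 to 16.72, just under 2-fold. The G stops at 1099, 1101, 1102 and 1105 in the same stretch had 129 to 299 stops in the library labelled Na+ and 24 to 43 in the library labelled K+. At 1095, some bases upstream, the order was the opposite, with 35 stops in the library labelled Na+ and 70 in the library labelled K+ (Na+ over K+ 0.500, 0.323 to 0.760). That is the 1 stop of the members stronger in the library labelled K+, and it just reached 2-fold. In vitro it had 8 stops in K+ and 5 in Li+, a ratio of E of 2.18 with an interval from 0.628 to 8.45. The folding score rests on these few counts. It was -0.85 in unstressed cells, where the stop was not listed and was taken as 0, and 1.13 in starved cells, on 8 stops. No change in folding can be read from it.

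NASP 2494, close to the end of the coding sequence, had 502 stops in the library labelled Na+ (E 113, 103 to 123) and was not listed in the library labelled K+, so E was at least 173-fold higher against a floor of 3 stops, before counting error. In DMS libraries it had 7 stops in K+ and 4 in Li+ in vitro, with 8 in starved and 3 in unstressed cells. With so few counts its in vitro ratio of 2.35 had an interval from 0.599 to 11.0, and no difference between the cell libraries was detectable at this depth (1.81, 0.434 to 10.6). The folding score, on these few counts, was 0.64 in unstressed and 1.76 in starved cells. H3-3B behaved differently from the genes above. Its 8 strong stops had between 61 and 76 stops in the library labelled Na+ and between 61 and 106 in the library labelled K+, with ratios near 1. At H3-3B 620 the counts were 74 and 106, and E was 12.9 (10.1 to 16.2) and 17.1 (14.0 to 20.7). NAP1L1 977, in the coding sequence, had 89 and 90 stops, with E of 10.2 and 9.52.

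**Figure D5:**
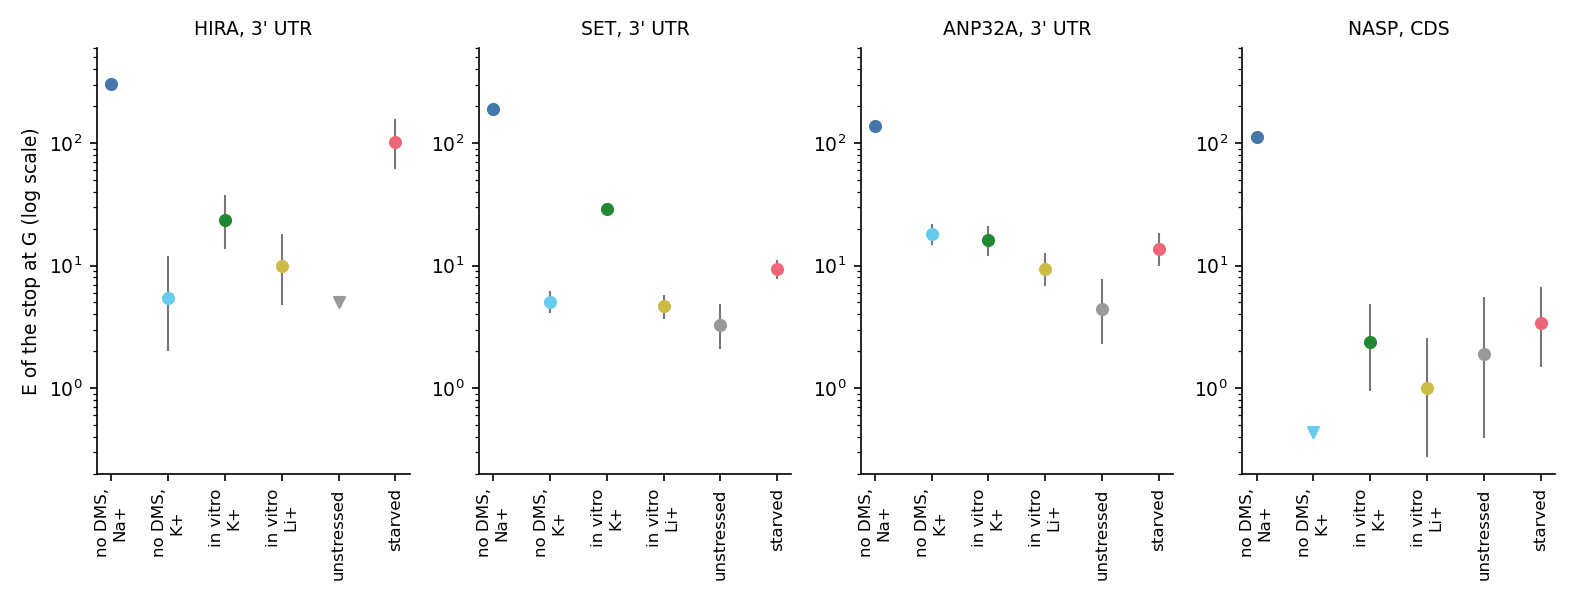
Enrichment E (log axis) in each of the 6 libraries of the strongest G stop of HIRA (3967), SET (1667), ANP32A (1100) and NASP (2494), with bars for the 95% counting interval. A triangle marks a stop that was not listed, drawn at the E that 2 stops would give, and the library labelled Na+ is highest in all 4 panels.

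The plot of E by library for these 4 stops shows the drop from the library labelled Na+ to the library labelled K+ in each panel. The step from K+ to Li+ in vitro is smaller, and the intervals of E are apart for SET 1667 only. The stops that differed 2-fold between the libraries without DMS, in either direction, are called cation-dependent below. Of the 17 in the members, the 13 of SET, ANP32A and NASP were on transcripts past the minimum in every library. Of these, 4 were at least 2-fold stronger in vitro in K+ than in Li+ (SET 1667 and 1668, ANP32A 1095 and NASP 2494), where 22.3% of all such stops were. In the other direction 1 of 13 was (ANP32A 1105), where 16.4% were. Of the strong stops that were not cation-dependent, 0 of 11 were 2-fold stronger in K+, where 8.15% were. The shares are near the background in each case, so SET 1667 and 1668, with intervals wholly above 2-fold, stand for themselves and not for the list.

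In cells, 10 of the 13 cation-dependent stops were at least 2-fold stronger after starvation and 0 of 13 in unstressed cells, where 56.1% and 5.63% of all such stops were. The 10 were 4 in SET and 6 in ANP32A, and those 6 lie in 1 site. Of the strong stops that were not cation-dependent, 6 of 11 were at least 2-fold stronger after starvation, where 46.4% were, which is near the background. Not all cation-dependent stops went up, as SET 1668 had a ratio of starved over unstressed cells of 0.777 (0.345 to 1.80). The share of stops at G was also higher in starved cells, as given above. With the deposited ratio, which sets a stop against the stops at the same base of its transcript and so does not rise with the G share as a whole, 4 of 12 cation-dependent stops were 2-fold stronger after starvation, where 44.6% of 962 such stops were.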

How the data were processed

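RT stops of U2OS poly(A) RNA were read in 6 libraries, 1 per condition. The authors removed duplicate reads and mapped the rest to an hg19 transcriptome with Bowtie (version not given), allowing no mismatch and a single position. Deposited were the count of stops, where it reached 3, for each nucleotide of a transcript, and the ratio of this count to a mean. In the values that mean covers the nucleotides with the same base in the transcript. From the ratio the stops of each base, unlisted ones included, were rebuilt, and a base with no listed nucleotide was taken as 0. GENCODE release 44 on GRCh37 gave sequence and regions by matching the listed bases. Of 11031 RefSeq transcripts with 15 or more listed bases, out of 15739, a match at 97% identity over 80% of those bases was found for 10431. Levels are rebuilt stops per 1000000 rebuilt stops on matched transcripts.

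Shares have Clopper-Pearson intervals, and ratios have exact binomial intervals. No p-value was calculated. The members and lists were chosen with earlier results of these data known. All members were described, and each of their strong stops at G was described or counted. Of the other pathway genes, those past 1.5-fold with at least 200 stops in both cell libraries were named, at most 5 each way, with ATRX and DAXX. The transcripts nearest to HIRA were the 3 with the smallest distance. The calculations were tested on simulated data. Alternatives changed the stops used, the fold, the minimums, the scaling, the E of a strong stop, the enrichment measure and the assignment of the libraries without DMS, and 16 were added after seeing the data. The tools were matplotlib 3.10.9, scipy 1.17.1, pandas 2.3.3, numpy 2.4.6 and Python 3.11.15.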

Additional observations from a re-analysis of the deposited data

How the results depend on the processing

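With 1 library per condition no replicate could be left out, and a difference between 2 libraries cannot be separated from a difference between cultures. HIRA, UBN1 and ASF1B kept their direction and stayed past 1.5-fold under every alternative in which they were tested. Of 49 recomputed counts and medians, 31 were classed as the same, a class that still held small moves, as from 3 lower members to 4 or to 2. The median member log2 level of starved over unstressed cells was -0.43 with listed stops only, -0.33 with stops at U and G only, -0.33 with a minimum of 200 stops, -0.33 with no minimum, -0.23 centred on the median transcript and -0.67 after subtraction of the GC line. Over all transcripts the medians in the first 4 of these settings were -0.34, -0.41, -0.27 and -0.25, so with stops at U and G only the members lay above all transcripts, not below as in the main setting. With listed stops only, H3-3B and ANP32A also passed 1.5-fold and 4 of 8 members were lower, where 44.7% of transcripts were, and SET turned to -0.070. H3-3B passed it with stops at U and G only as well. With stops at A and C only, 1 member was higher and 3 lower, and the median was -0.52. On transcripts with all 4 bases listed in both cell libraries, 1 of 8 was higher and 2 lower, with ASF1B left out. Over all transcripts, 20.9% and 19.4% were higher and 40.7% and 41.05% lower in these settings. The number of members higher in starved cells was 0 with a fold of 2, 2 when centred and 0 after the GC line, where 11.6%, 31.8% and 19.72% of all transcripts were. The number lower was 5 after the GC line, where 20.35% were, against a median of -0.030 over all transcripts. ASF1A reversed to -0.073 after the GC line, and NAP1L1 turned from 0.48 to -0.47 and SET from 0.044 to -0.40, so 6 of 9 signs were kept. Strong member stops at G numbered 152 in the library labelled Na+ and 151 in the library labelled K+ with E of at least 5, where 4.53% and 3.80% of all listed G were strong, and 12 and 0 with E of at least 20, where 0.344% and 0.0223% were. The member stops 2-fold stronger in K+ numbered 16 of 26 when the opposite assignment was used, where 74.9% of 5970 were, and 0 of 9 with a difference of 3-fold, where 5.35% of 1757 were. Cation-dependent stops stronger in starved cells numbered 4 of 12 with the deposited ratio, where 44.6% of 962 were. The 3′ UTR share of HIRA stops at G in the library labelled Na+ went from 59.6% to 24% without the site at 3966 and 3967, and in the library labelled K+ from 29.4% to 28.7%. The cause of these changes was not tested, apart from the counts that a stricter or looser threshold changes by construction. Depth limited HIRA, UBN1, ASF1B and H3-3A in the DMS libraries, and ASF1A in unstressed cells, with 0.520 stops per nucleotide. At a minimum of 0.25 stops per nucleotide, HIRA entered the in vitro comparison, where 6 of 17 stops were stronger in K+ against 20.03% of 4722 such stops, but not the comparison of the cell libraries. Of the 6, HIRA 3966 rests on 3 stops against an unlisted nucleotide.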
